A study of Mus musculus with 6 samples.

Results

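The cells described here are Foxp3-positive ovalbumin-specific CD4+ T cells recovered from the Peyer's patches of mice that drank ovalbumin, profiled with droplet single-cell RNA sequencing that counts the 3′ ends of transcripts as unique molecular identifiers (UMIs). A cell was kept as a T cell when it had at least 500 detected genes, at most 10% of its UMIs in mitochondrial genes, at least 1 UMI of Cd3e, Cd3d or Cd3g, and no UMI of Epcam, Krt8 or Cd79a. A kept cell was counted as Foxp3-positive when it held at least 1 UMI of Foxp3 (ENSMUSG00000039521, chromosome X, 7573644 to 7595245, plus strand, GRCm38). The rule found 152 Foxp3-positive cells among 2887 kept cells of 4803 barcodes. The other 2735 kept cells served as the comparison. All donor T cells carried the OT-II receptor, which recognises an ovalbumin peptide, on an OTII+/+RAG-/- background, so that donors had no other rearranged antigen receptor. The donors were WT or heterozygous TgfbrIWT/mut, carrying a knock-in of the M318R allele, known from Loeys-Dietz syndrome, at the Tgfbr1 locus. CD4+ cells from donor lymph nodes and spleen were injected intravenously into CD45.1 WT hosts, so the receptor allele was present in the transferred cells only. The hosts drank water with 1.5% ovalbumin for 7 days, and on day 8 the Peyer's patches were taken and CD4+ donor cells sorted as CD45.2+ and TCRβ+, without CD45.1 or CD8. Each genotype had 2 libraries with a count matrix, called WT 1, WT 2, mutant 1 and mutant 2 below. The labels do not say how many animals each library holds or whether animals were pooled, nor the age of donors and hosts, so the spread between libraries that the p-values use may be technical. The WT libraries carried antibody hashtags and the mutant libraries did not, so hashtag handling and genotype cannot be told apart.

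Foxp3 is the transcription factor that defines regulatory T cells, which restrain immune responses to self, food and commensal bacteria. Foxp3 can be switched on in mature CD4+ T cells outside the thymus, and TGF-β signalled through its receptors is a main inducer, together with retinoic acid in the gut, which also induces the homing receptor Ccr9. Peyer's patches are the lymphoid follicles of the small intestine, in which follicular helper T cells, marked by Bcl6, Cxcr5, Il21 and Il4, help B cells to make antibody.

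Foxp3-positive cells made up 8.98% of kept cells in WT 1 (111 of 1236, exact Clopper-Pearson 95% interval 7.45 to 10.7) and 4.40% in WT 2 (27 of 614, 2.92 to 6.33). The mutant libraries held 1.53% in mutant 1 (13 of 847, 0.820 to 2.61) and 0.526% in mutant 2 (1 of 190, 0.0133 to 2.90). Both WT shares lay above both mutant shares, and neither mutant interval overlapped a WT interval, although that of mutant 2 ended just below that of WT 2. The mean was 6.69% ± 3.24 in WT and 1.03% ± 0.713 in mutant libraries (SD, n = 2 each), a ratio of 6.49. Since the cells were chosen by their own Foxp3 counts, these shares are a description. A two-sided exact permutation test of 2 against 2 libraries cannot go below p = 0.333. The intervals cover counting error only. With at least 2 Foxp3 UMIs required, the shares were 4.85%, 2.77%, 1.06% and 0.526%. The WT 2 interval (1.62 to 4.40) then overlapped those of mutant 1 (0.487 to 2.01) and mutant 2 (0.0133 to 2.90). It also overlapped both at no more than 5% mitochondrial UMIs. With at least 1000 detected genes required, or with barcodes that Scrublet called doublets removed, it overlapped that of mutant 2. The share expected if every cell were read at 4000 UMIs was 5.96%, 2.96%, 1.03% and 0.346%, in the same order of libraries.

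**Figure D1:**
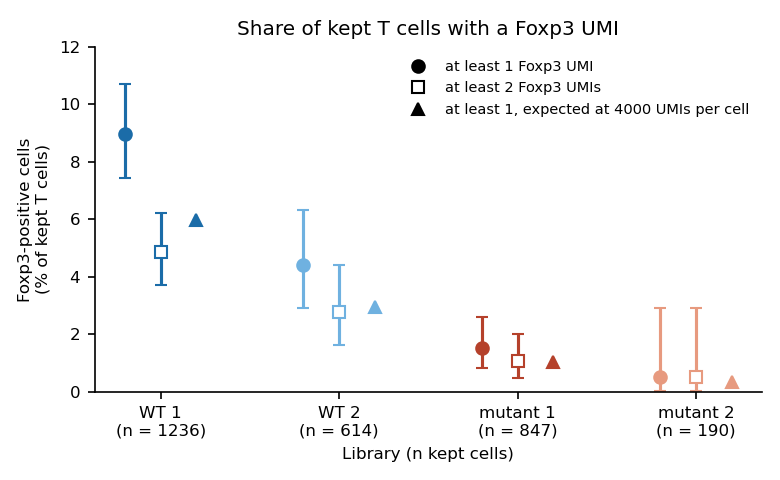
Share of kept T cells that were Foxp3-positive (vertical axis, percent) in the 4 libraries (horizontal axis, with kept cells), by 3 definitions; bars are exact 95% intervals and the triangles have none. WT 1 and WT 2 stood at 8.98% and 4.40% and mutant 1 and mutant 2 at 1.53% and 0.526%, and the order of the libraries was the same under each definition.

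Foxp3 was read shallowly in single cells. The positive cells held 267, 65, 30 and 2 Foxp3 UMIs in WT 1, WT 2, mutant 1 and mutant 2, a mean of 2.41, 2.41, 2.31 and 2 per positive cell. Exactly 1 UMI was found in 51, 10, 4 and 0 of them, and the highest cell of each library held 10, 5, 5 and 2. These counts chose the cells, so each is at least 1 by the rule, and they give no comparison of Foxp3 level between genotypes. As a measure of free RNA, 1 of 70 barcodes with an Epcam, Krt8 or Cd79a UMI and no Cd3 UMI held Foxp3 (1.43%, exact interval 0.0362 to 7.70), at a median of 4290.5 UMIs. The shares of WT 2 and of both mutant libraries lay within that interval, and that of mutant 2 lay below the background value itself, so this measure alone does not set them apart from background. Ccr9, a gene outside the rule, stood at 851 against 7.81 CPM in positive and other cells of mutant 1. CPM is counts per 1000000 counts of the library. A Ccr9 UMI was found in 9 of the 13 positive cells of mutant 1. It was found in none of the 10 cells of WT 2 with exactly 1 Foxp3 UMI. Ccr9 had the smallest p of all genes tested, and the part of free RNA was not tested. Foxp3-positive and other cells had like depths, with medians of 8586 and 8830 UMIs in WT 1, 8822 and 8604 in WT 2, and 8060 and 8511.5 in mutant 1. The single positive cell of mutant 2 had 11760 UMIs. Summed per library, the positive cells gave 1064124, 268036 and 117134 UMIs in WT 1, WT 2 and mutant 1, against 10593735, 5264917 and 7334221 for the other kept cells, so values for mutant 1 positive cells are the least precise. Scrublet called 31 of the 4803 barcodes doublets, and none of the 152 positive cells was among them. The libraries shared 4 cell barcodes among kept cells, none of them in a Foxp3-positive cell. Of the V beta segment UMIs in Foxp3-positive cells, 48 of 52 were V beta 5, the chain of OT-II (92.3%, exact interval 81.5 to 97.9), close to 668 of 705 (94.8%) in the other cells. The V alpha 2 chain of OT-II took 5 of 5 V alpha UMIs in positive cells and 76 of 122 in the others. The 3′ counts of Tgfbr1 do not show its M318R allele, so they are no check of the genotype labels.

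Levels were compared between Foxp3-positive and other cells of the same library, using summed counts of WT 1, WT 2 and mutant 1, with the library as a block and Foxp3 itself left out. Mutant 2, with 1 positive cell, did not enter. Levels are in CPM scaled by TMM, and a fold change is the log2 ratio with its standard error. Of 9979 genes tested, 214 rose and 162 fell in Foxp3-positive cells at an edgeR adjusted p under 0.05 (3.77% called, 2.14% up and 1.62% down). The median of all genes was −0.04, and 357 of the 376 called genes differed in the same direction in all 3 libraries. Without WT 1, WT 2 or mutant 1 the rises numbered 132, 124 and 131 and the falls 126, 73 and 55. Against other cells matched to the positive cells on depth, 85 genes rose and 53 fell. Matching took 1 other cell per positive cell, 111, 27 and 13 in place of 1125, 587 and 834. The parts of depth and of cell number in the calls lost there were not tested.

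Genes of regulatory T cell identity were mostly higher. Of 18 listed genes, 14 were testable, 9 rose and none fell, with a median log2 difference of 1.66. These lists were chosen with results of these data known. Ctla4, an inhibitory receptor that regulatory T cells use against antigen-presenting cells, stood at 480.3, 517 and 953 CPM in positive cells of WT 1, WT 2 and mutant 1 and at 167, 171 and 305 in the others. Every positive value lay above every other value, a log2 difference of 1.58 ± 0.13 (edgeR adjusted p = 1.57e-17). Il2ra, the alpha chain of the interleukin-2 receptor, stood at 26.8, 49.4 and 55.1 against 4.55, 3.46 and 3.63 CPM, without overlap (3.27 ± 0.48, edgeR adjusted p = 1.29e-07). Capg, an actin-capping protein, stood at 433, 491 and 929 against 96.9, 84.3 and 60.0 CPM, again without overlap (2.81 ± 0.16, edgeR adjusted p = 6.43e-28). The fourth marker of the label, the G protein-coupled receptor Gpr83, went the other way in mutant 1. Its level was 31.6, 64.6 and 0 CPM in positive and 30.3, 29.0 and 8.51 CPM in other cells, so the groups overlapped (0.39 ± 0.31, edgeR adjusted p = 0.790). In summed counts, the label therefore held for Ctla4, Il2ra and Capg and not for Gpr83. An Il2ra UMI was found in 28 of the 152 positive cells.

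Among the other identity genes, the anti-inflammatory cytokine Il10 had the largest rise of all named genes. Il10 stood at 109, 83.7 and 142 CPM in positive cells and 0.872, 0.768 and 0.976 CPM in the others, more than any spread between libraries (6.94 ± 0.40, edgeR adjusted p = 2.97e-28). Prdm1, the transcription factor Blimp-1 that marks effector regulatory cells, stood at 47.9, 49.4 and 63.0 against 1.26, 1.54 and 3.63 CPM (4.80 ± 0.50, edgeR adjusted p = 1.93e-13). Smaller rises were seen for the costimulatory receptors Tnfrsf4 (1.90 ± 0.15) and Tnfrsf18 (1.00 ± 0.15) and for Nt5e, the ectoenzyme CD73 that makes adenosine (1.28 ± 0.15). Tigit, an inhibitory receptor, rose by 1.75 ± 0.47 (edgeR adjusted p = 0.0121), a call lost when WT 1, WT 2 or mutant 1 was left out (adjusted p = 0.331, 0.108 and 0.101). Ikzf2, the factor Helios that is high in thymus-derived regulatory cells, did not pass (−0.31, edgeR adjusted p = 0.462), nor did Ikzf4 (1.95, 0.0634), the folate receptor Izumo1r (−0.20, 0.650) or Entpd1, the ectoenzyme CD39 (1.43, 0.290). Nrp1 (8 UMIs in 2 cells), Lrrc32 (2 UMIs in 1 cell) and Ebi3 (3 UMIs in 3 cells) were too scarce in the 152 positive cells to test.

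**Figure D2:**
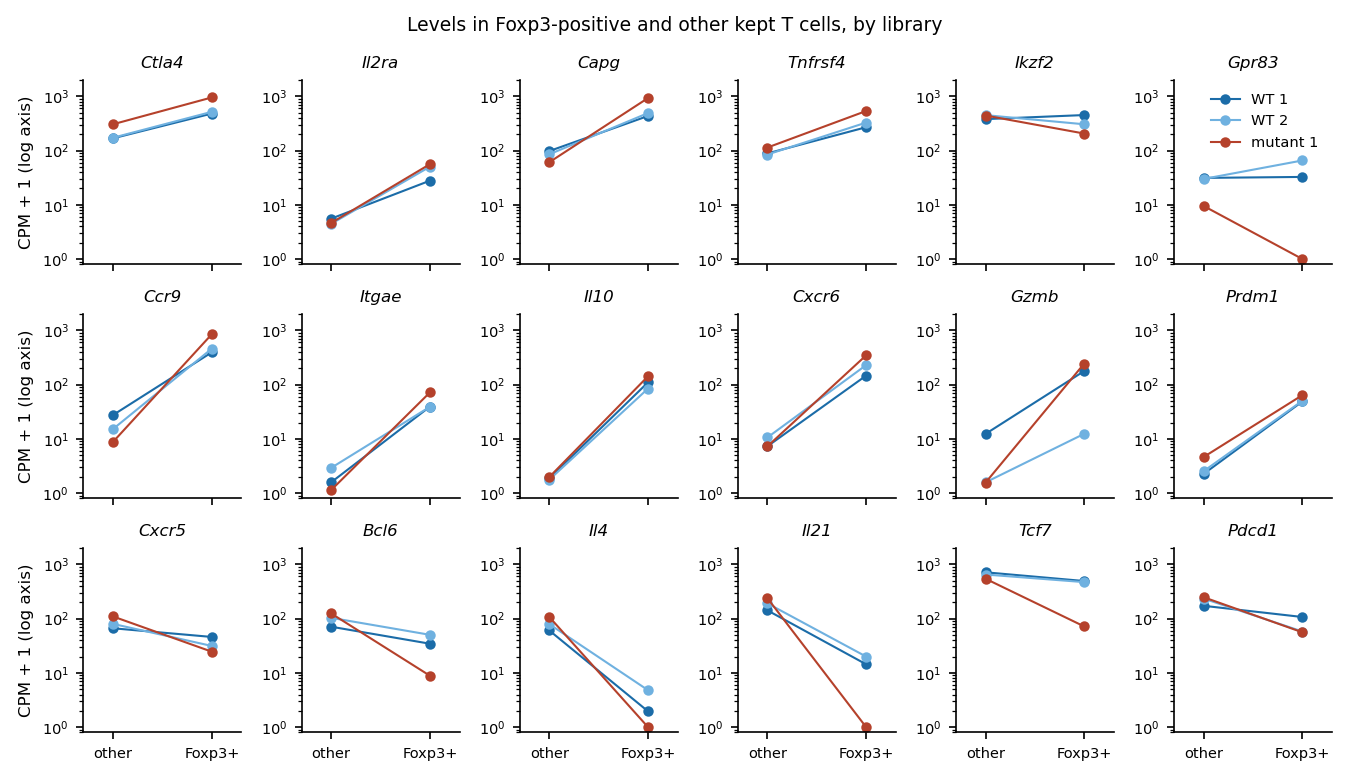
Level of 18 genes in other and Foxp3-positive kept cells (horizontal positions), as CPM + 1 on a log axis, with a line for each of WT 1, WT 2 and mutant 1. Ctla4, Il2ra, Capg, Ccr9, Il10 and Prdm1 rose in each library, Il4, Il21 and Bcl6 fell in each, and Gpr83 was at 0 in mutant 1 positive cells.

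Receptors that direct T cells to the gut wall, and factors of regulatory cells induced outside the thymus, made up the list with the highest median. Of 14 genes listed, 11 were testable, 10 rose and none fell, with a median of 2.93. Ccr9 (ENSMUSG00000029530, chromosome 9, 123678439 to 123784330, plus strand), the receptor for the small-intestinal chemokine CCL25, stood at 394, 460.1 and 851 CPM in positive cells and 26.5, 14.2 and 7.81 CPM in the others. That was the smallest p of all genes tested (4.99 ± 0.21, edgeR adjusted p = 1.90e-39). Cxcr6, a chemokine receptor of tissue-resident T cells, stood at 146, 228 and 347 against 6.30, 9.60 and 6.28 CPM (4.88 ± 0.22, edgeR adjusted p = 9.16e-37). Itgae, the integrin CD103 that holds T cells at the epithelium, stood at 38.3, 38.0 and 70.9 against 0.581, 1.92 and 0.139 CPM (5.83 ± 0.60, edgeR adjusted p = 1.92e-13). None of the 3 genes had overlapping values between positive and other cells. This is a description, since the list was chosen with results known. The share of all genes tested without overlap was not counted. The chemokine receptor Ccr6 stood at 48.9, 38.0 and 134 against 1.16, 1.34 and 0.279 CPM (6.02 ± 0.55, edgeR adjusted p = 3.16e-16). Cxcr3 (2.93), Rora (2.35), the aryl hydrocarbon receptor Ahr (1.60) and the integrin pair of gut homing, Itga4 (1.17) and Itgb7 (1.17), also rose. Gata3 did not pass (−0.24, edgeR adjusted p = 0.856), and Gpr15, Il1rl1 and Areg were too scarce to test.

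Follicular helper genes were lower. All 14 listed genes were testable, 10 fell and 1 rose, with a median of −1.28. Il21, the cytokine that drives germinal centre B cells, stood at 13.4, 19.0 and 0 CPM in positive and 141, 191 and 238 CPM in other cells, without overlap (−3.61 ± 0.27, edgeR adjusted p = 9.70e-21). Il4 had 2 UMIs in the positive cells of the 3 libraries against 1788 in the others, 55.9-fold (counting interval 15.4 to 462) lower (edgeR adjusted p = 1.56e-16). Bcl6, the lineage factor of follicular helper cells, stood at 33.6, 49.4 and 7.88 against 70.1, 103 and 124 CPM, without overlap (−1.30 ± 0.24, edgeR adjusted p = 3.31e-05). The germinal centre signature gene Sostdc1 (ENSMUSG00000036169, chromosome 12, 36314139 to 36318452, plus strand) had no UMI in positive cells and 2539 in the others, at 71.5, 121 and 163 CPM. Against a floor of 3 counts over the positive cells, Sostdc1 was at least 52.9-fold lower (edgeR adjusted p = 3.05e-21). The inhibitory receptor Pdcd1 stood at 106, 57.0 and 55.1 against 172, 234 and 248 CPM (−1.25 ± 0.19, edgeR adjusted p = 3.58e-07). Ascl2 (−2.75), Tox2 (−1.71) and Btla (−1.18) fell as well. The chemokine receptor Cxcr5, which guides cells into follicles, fell by a smaller amount (−0.94 ± 0.23, edgeR adjusted p = 0.00517), a call lost without WT 2 (adjusted p = 0.140) or mutant 1 (adjusted p = 0.179). Cd40lg (−1.39) lost its call without mutant 1 (adjusted p = 0.0894). Icos, a costimulatory receptor of both follicular and regulatory cells, was the member that rose (322, 342 and 764 against 177, 225 and 268 CPM, 0.98 ± 0.14, edgeR adjusted p = 1.35e-07). Maf (0.19), Sh2d1a (0.03) and Slamf6 (−0.38) did not pass. With no library block, the calls of Ascl2, Tox2, Btla and Icos were lost (adjusted p = 0.115, 0.0916, 0.0907 and 0.121).

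**Figure D3:**
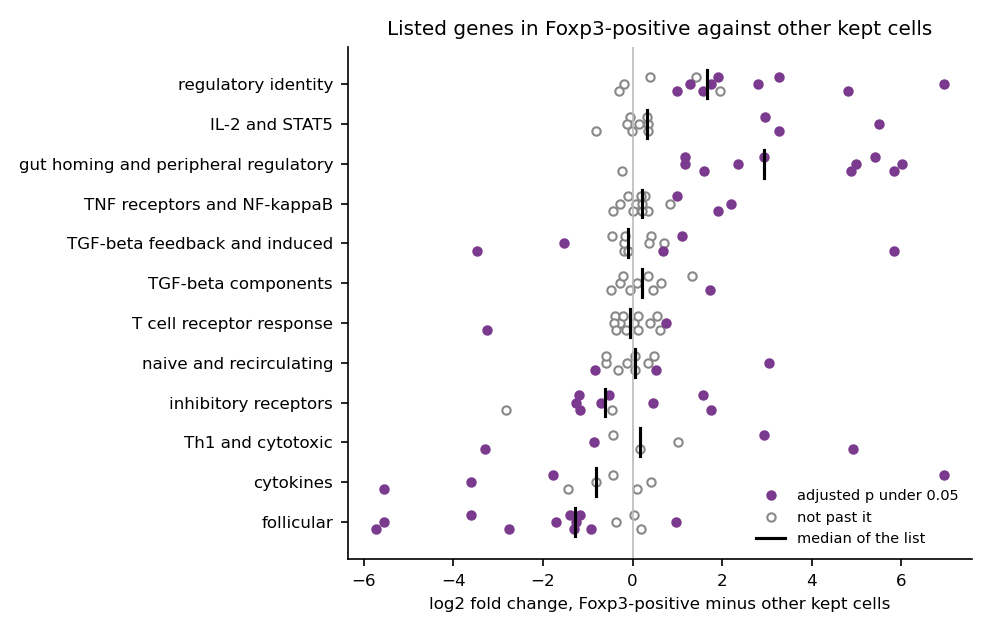
Log2 difference of each testable gene of 12 lists, Foxp3-positive minus other kept cells (horizontal axis); filled points passed an edgeR adjusted p of 0.05, bars are list medians, and genes with no UMI in positive cells are drawn at their bound. The gut homing list (median 2.93) and the regulatory identity list (1.66) lay to the right of all genes (−0.04), and the follicular list (−1.28) to the left.

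Other groups of genes were less uniform. In the interleukin-2 and STAT5 list, 3 of 11 testable genes rose and none fell (median 0.32): Il2ra and the STAT5-induced feedback genes Socs2 (5.51 ± 0.64, edgeR adjusted p = 3.85e-11) and Cish (2.96 ± 0.54, 3.53e-05). Against depth-matched other cells Socs2 was lower and lost its call (2.82, adjusted p = 0.0623). Of the TNF receptor and NF-κB list, 3 of 14 rose, which were Tnfrsf4, Tnfrsf18 and Tnfrsf1b, the TNF receptor 2 of regulatory cells (2.19 ± 0.26). Among 13 testable TGF-β feedback and induced genes, 3 rose and 2 fell (median −0.09). Itgae rose as above, and the SMAD repressors Skil (0.67) and Tgif1 (1.12) rose with calls that were lost without single libraries (adjusted p = 0.405 for Skil without WT 2, and 0.183 for Tgif1 without WT 1). The DNA-binding inhibitor Id3 fell (−1.53 ± 0.25, edgeR adjusted p = 2.41e-06), and its relative Id1 had no UMI in positive cells against 534 in the others, at least 11.1-fold lower, a call lost with no library block (adjusted p = 0.214). The inhibitory SMAD Smad7 (0.71, edgeR adjusted p = 0.0585) and Pmepa1 (0.41, 0.398), both feedback targets of TGF-β, did not pass. Of 10 testable components of the TGF-β pathway, 1 passed: Furin, a protease that processes TGF-β, rose by 1.74 ± 0.25 and lost its call without WT 1 (adjusted p = 0.253). Tgfbr1 (0.35) and Tgfbr2 (−0.48) did not pass.

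Of 11 testable genes of naive and recirculating cells, 2 rose and 1 fell (median 0.04). Il7r, the interleukin-7 receptor, stood at 61.4, 57.0 and 291 CPM in positive and 11.7, 11.9 and 12.6 CPM in other cells, without overlap (3.06 ± 0.28, edgeR adjusted p = 1.13e-15). The rise of the chromatin organiser Satb1 (0.53) was lost when any 1 of the 3 libraries was left out. Tcf7, the factor TCF-1 of naive and follicular T cells, stood at 494, 472 and 70.9 against 716, 651 and 545 CPM (−0.85 ± 0.16, edgeR adjusted p = 6.47e-05), with the lowest value in mutant 1 positive cells. This fall was lost with DESeq2 (−1.19, adjusted p = 0.999) and against depth-matched other cells (−0.61, adjusted p = 0.160). Among 10 testable inhibitory receptor genes, 3 rose (Ctla4, Tigit and Lag3) and 5 fell (Pdcd1, Btla, Cd160, Cd200 and Tox), with a median of −0.61, but the calls of Lag3, Cd160, Cd200 and Tox were each lost without at least 1 library. Cytokine genes gave 1 rise, Il10, and 3 falls in 9 tests (median −0.81). The falls were Il4, Il21 and Tnfsf8, the CD30 ligand, at 227, 270.0 and 110.3 against 619, 758 and 1000.3 CPM (−1.77 ± 0.16, edgeR adjusted p = 1.73e-16). Of 14 genes of the T cell receptor response, Batf rose (0.75) and Nr4a2 fell, with 3 UMIs against 441, 9.19-fold (counting interval 3.12 to 44.7) lower. Without mutant 1 the Batf call was lost (adjusted p = 0.231), and without WT 1 that of Nr4a2 (0.0647).

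Cytotoxic and cycling genes rested on few cells. The granule protease Gzmb stood at 177, 11.4 and 244 CPM in positive and 11.3, 0.576 and 0.558 CPM in other cells (4.92 ± 0.34, edgeR adjusted p = 9.01e-23). Its UMIs came from 10, 1 and 4 positive cells of WT 1, WT 2 and mutant 1, and the highest single cell gave 45 of 185, 3 of 3 and 16 of 31 of them. Of 7 testable Th1 and cytotoxic genes, Gzmb and Cxcr3 rose, and Eomes (−3.30 ± 0.40) and Nkg7 (−0.85) fell, the last without a call when WT 2 was left out (adjusted p = 0.999). The cycling marker Mki67 passed with a rise of 1.49 ± 0.37 (edgeR adjusted p = 0.00579), yet its level was 53.7, 3.80 and 15.8 against 5.13, 21.9 and 38.9 CPM, higher in positive cells of WT 1 only. A single WT 1 cell gave 38 of its 56 UMIs there, and without WT 1 the difference was −1.81. None of the other 11 cycling genes passed.

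Genes outside the lists were among the largest rises. By the rule of largest changes, the 12 rises included Il10, Sdc4, Acsbg1, Nckap5, Ccr6, Neb, Itgae, Plekhf1, Socs2, Mmp9 and Ccr2. The proteoglycan Sdc4 stood at 25.9, 22.8 and 86.6 against 0.484, 0 and 0.279 CPM (6.90 ± 0.71, edgeR adjusted p = 1.48e-13). Neb, which encodes the muscle protein nebulin, stood at 82.5, 72.3 and 221 against 2.13, 1.34 and 1.39 CPM (edgeR adjusted p = 8.72e-25). Ccr2, the receptor of inflammatory monocyte chemokines, stood at 37.4, 26.6 and 86.6 against 1.45, 0.768 and 1.39 CPM (5.15 ± 0.56, edgeR adjusted p = 1.42e-12). In each of these genes every positive value exceeded every other value. Since they were chosen for large rises with one direction in every library, this is a description. The acyl-CoA synthetase Acsbg1 (6.73), Nckap5 (6.49), the metalloproteinase Mmp9 (5.42) and Plekhf1 (5.76) were as high on the log2 scale, but Plekhf1 lost its call without WT 2 (adjusted p = 0.0906), and Nckap5 and Mmp9 lost theirs with DESeq2 (adjusted p = 0.0763 and 0.0695). The 8 largest falls had no UMI in positive cells. After Sostdc1 and Id1 they were Nrbp2, Ntng1, Apoe, Xcl1, Kirrel3 and Atp6v1g3, at least 6.58, 6.54, 6.50, 6.39, 4.37 and 4.29-fold lower. Each of these 6 lost its call without at least 1 library.

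In 3 lists of markers of other cell types, single genes gave most of the counts. The 9 B and plasma cell genes summed to 237, 287 and 367 UMIs per 1000000 in positive cells of WT 1, WT 2 and mutant 1 and to 164, 226 and 302 in other cells. At least 1 UMI of that list was found in 71.2%, 74.1% and 84.6% of positive and 58.8%, 61.8% and 67.9% of other cells. Ighm, the constant segment of the IgM heavy chain, gave 215 of the 252, 71 of the 77 and 40 of the 43 UMIs of the list in positive cells. Ms4a1, a surface marker of B cells, had none there. None of the 4 testable genes passed, Cd79b (2.39, edgeR adjusted p = 0.0940) and Cd74 (1.37, 0.103) among them. The γδ T cell list came from 1 gene in positive cells, the constant segment Trdc, and summed to 312, 276 and 102 in positive and 423, 421 and 366 in other cells. Trdc had a UMI in 82.9%, 92.6% and 53.8% of positive and 88.4%, 86.4% and 84.8% of other cells. Its fall in positive cells (−0.74) was not called without mutant 1 (adjusted p = 0.0522), with DESeq2 (0.103) or against depth-matched cells (0.345). The myeloid list summed to 97.7, 149 and 137 against 88.1, 80.7 and 80.3, with a UMI in 60.4%, 55.6% and 76.9% of positive and 53.2%, 47.4% and 45.7% of other cells. Cst3, a secreted protease inhibitor, gave 100 of 104, 40 of 40 and 13 of 16 of its UMIs in positive cells. The CD8 pair summed to at most 7.5 in positive and 8.0 in other cells, and the epithelial list to at most 11.2 and 8.2. In the NK and innate lymphoid list, positive cells of mutant 1 stood at 76.8, all of it from 9 Kit UMIs in 1 cell. The part of these markers in the differences was not tested.

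Cells just inside the threshold differed from those just outside it in WT 1. There, Ccr9 stood at 25.9, 265 and 488 CPM of the raw sums in cells with 0, with 1 and with at least 2 Foxp3 UMIs, and Il10 at 0.850, 51.5 and 154. Ctla4 stood at 163, 342 and 579, and Capg at 94.4, 317 and 515. Each gene was thus intermediate at 1 Foxp3 UMI. In WT 2, the 10 cells with exactly 1 Foxp3 UMI had no UMI of Ccr9, Il10, Il2ra or Itgae, while cells with at least 2 held Ccr9 at 791 and Il10 at 144. Mutant 1 was high on both steps, with Ccr9 at 7.64, 1511 and 677, the middle value from 4 cells. These steps use the measure that chose the cells and are given as a description.

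Foxp3-positive cells were not uniform. Ccr9 was detected in 51 of 111 cells of WT 1 (45.9%, exact interval 36.4 to 55.7), 12 of 27 of WT 2 (44.4%, 25.5 to 64.7), 9 of 13 of mutant 1 (69.2%, 38.6 to 90.9) and the 1 cell of mutant 2. All intervals of more than 1 cell overlapped. Split by Ccr9, which was chosen after its values were seen and is not tested, the 73 positive cells with Ccr9 and the 79 without it had medians of 7772 and 10080 UMIs. Il10 was detected in 49.3% of cells with Ccr9 and 2.53% of cells without it. For Cxcr6 the shares were 54.8% and 0 of 79, which allows a share of cells with a UMI of up to 3.80% by 3 counts of the total. A cell without a UMI may still express the gene. Itgae was found in 37.0% and 1.27%, Prdm1 in 37.0% and 6.33%, and Gzmb in 20.5% and 0 of 79, with the same limit. Each of these 5 genes was thus detected in a larger share of the cells with Ccr9, although these were the shallower cells.

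Other genes were detected in a larger share of the positive cells without Ccr9. Tcf7 was detected in 91.1% of them and in 37.0% of those with Ccr9, and the lymph node homing receptor Ccr7 in 60.8% and 19.2%. Lef1, the partner of Tcf7, was found in 82.3% and 58.9%, Tnfsf8 in 79.7% and 32.9%, Bcl6 in 31.6% and 6.85%, and Gpr83 in 19.0% and 6.85%. These shares are not adjusted for depth, and the cells without Ccr9 were the deeper ones. At an equal depth of 4000 UMIs, the expected shares for cells without and with Ccr9 were 80.2% and 31.2% for Tcf7 and 1.69% and 40.2% for Il10, over 78 and 71 cells. By library, Tcf7 was found in 55 of 60, 14 of 15 and 3 of 4 positive cells without Ccr9 and in 22 of 51, 3 of 12 and 1 of 9 with it, in WT 1, WT 2 and mutant 1. The direction was the same in the 3 libraries.

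Regulatory markers were shared by both kinds of positive cell to different degrees. Capg was detected in 83.6% of positive cells with Ccr9, 64.6% of those without it and 34.7% of the 2603 other cells without Ccr9. Tnfrsf4 was found in 50.7%, 46.8% and 29.0% of these 3 sets. The shares of Capg and Tnfrsf4 are not adjusted for depth. Ctla4 was found in 79.5%, 65.8% and 57.4%, and at 4000 UMIs the last values came to 46.6% and 41.5%. Among the 132 other cells with Ccr9, Il10 was found in 4.55%, Cxcr6 in 15.9% and Tcf7 in 87.9%. Il10 was thus found mostly in cells that held both Foxp3 and Ccr9. Read the other way, 38 of 49 kept cells with an Il10 UMI were Foxp3-positive (77.6%), as were 28 of 37 with Itgae (75.7%) and 33 of 46 with Ccr6 (71.7%). By contrast, 40 of 107 kept cells with Cxcr6 (37.4%), 73 of 205 with Ccr9 (35.6%), 28 of 86 with Il2ra (32.6%) and 20 of 276 with Gpr83 (7.25%) were.

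**Figure D4:**
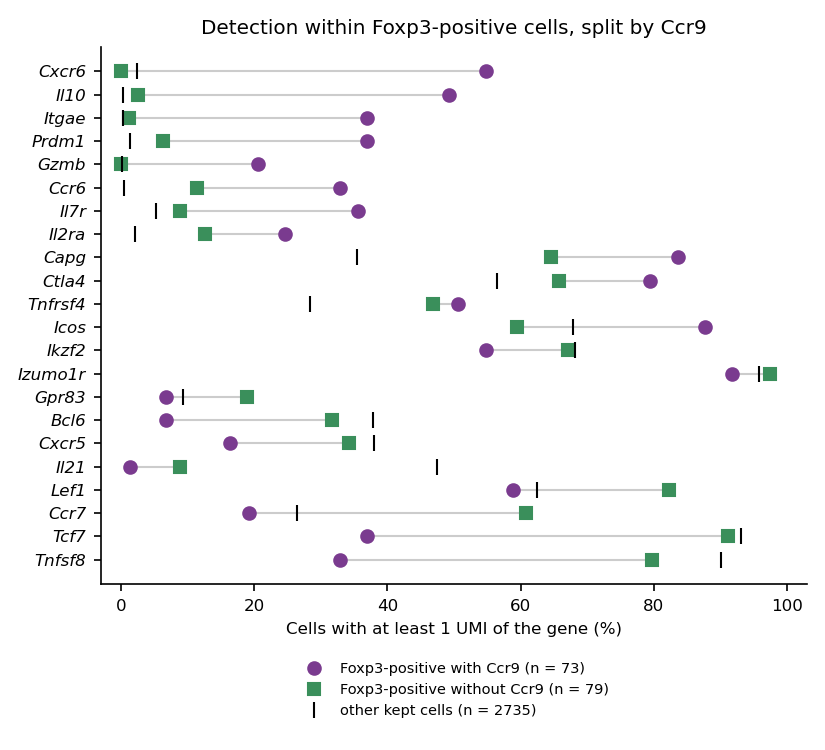
Percent of cells with at least 1 UMI of each gene (horizontal axis) in Foxp3-positive cells with Ccr9 (circles, n = 73), Foxp3-positive cells without Ccr9 (squares, n = 79) and all other kept cells (ticks, n = 2735). Cxcr6, Il10, Itgae and Gzmb were found in at most 2.53% of the cells drawn as squares, and for Tcf7, Tnfsf8, Ccr7 and Bcl6 the squares lay to the right of the circles.

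Genotype was compared within Foxp3-positive cells between WT 1 and WT 2 on one side and mutant 1 on the other. This fit has 1 residual degree of freedom among libraries, and mutant 1, with 13 positive cells, is assumed to vary like the WT libraries. Of 4748 genes tested, 69 rose and 105 fell in mutant 1 (3.66% called, 1.45% up and 2.21% down, edgeR adjusted p under 0.05), with a median of −0.05. The call count was unstable: with mutant 2 added it was 7 and 10, with at least 2 Foxp3 UMIs required 6 and 1, and with DESeq2 13 and 7. The CPM values here were normalized among positive cells alone and differ slightly from those above.

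Among cells with at least 1 Foxp3 UMI, 4 of 10 testable genes of the gut homing list rose in mutant 1 and none fell (Ccr9, Cxcr6, Ccr6 and Rora). In the regulatory identity list 3 of 12 rose (Capg, Ctla4 and Tnfrsf4). Ccr9 stood at 422 and 492 CPM in WT and 943 in mutant 1 (1.07 ± 0.21, edgeR adjusted p = 3.95e-05). Capg stood at 464 and 525 CPM in WT and 1030.0 in mutant 1 (1.08 ± 0.20, edgeR adjusted p = 1.30e-05), and Ctla4 at 515 and 553 against 1056 (0.99 ± 0.19, 5.35e-05). Il7r, too, was low in WT (65.8 and 61.0 CPM) and higher in mutant 1 (323 CPM), a difference of 2.32 ± 0.38 (edgeR adjusted p = 2.51e-07). In each gene mutant 1 lay above both WT libraries, which lay close to each other. With at least 2 Foxp3 UMIs required, none of these rises passed by edgeR: Ccr9 (0.06, adjusted p = 0.961), Capg (0.59, adjusted p = 0.388), Ctla4 (0.61, adjusted p = 0.317) and Il7r (1.74, adjusted p = 0.0828). With mutant 2 added, Ccr9 (0.86, adjusted p = 0.324), Capg (0.83, adjusted p = 0.395) and Ctla4 (0.74, adjusted p = 0.540) did not pass either. The other 4 were lost at 2 Foxp3 UMIs or more too (adjusted p = 0.729 for Cxcr6, 0.317 for Ccr6, 0.403 for Rora and 0.788 for Tnfrsf4). With mutant 2 added, Cxcr6 (0.670), Rora (0.107) and Tnfrsf4 (0.403) were lost. DESeq2 did not call Cxcr6 (0.423) or Tnfrsf4 (0.258), and with no filter on low counts Cxcr6 (0.0862) and Ccr6 (0.132) did not pass. Il10 (0.53, edgeR adjusted p = 0.753), Il2ra (0.77, 0.817), Itgae (0.93, 0.701) and Ikzf2 (−0.89, 0.0778) did not pass. Of the 8 testable follicular genes, Icos (1.26) and Maf (0.75) rose, both without a call at 2 Foxp3 UMIs or more (adjusted p = 0.269 and 0.442) or with mutant 2 added (0.0547 and 0.364). The other of the 5 largest rises rested on single cells or few UMIs: Il1r2 took 14 of its 18 mutant UMIs, Plek 9 of 12 and Ctsl 27 of 29 from 1 cell each, and Gbp3 had 13 UMIs in 7 of the 13 cells.

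Of 9 testable genes of naive and recirculating cells 5 fell and 1, Il7r, rose, with a median of −1.50. Tcf7 stood at 529 and 504 CPM in WT and 78.6 in mutant 1 (−2.72 ± 0.38, edgeR adjusted p = 4.40e-10). Ccr7 stood at 152 and 81.4 CPM in WT and had no UMI in mutant 1, at least 4.92-fold lower against a floor of 3 counts (edgeR adjusted p = 8.43e-05). Klf2 (−2.01), Lef1 (−1.50) and Foxp1 (−1.28) fell too. Ccr7, Klf2 and Lef1 were also called lower in the mutant among the other kept cells, as given below. With at least 2 Foxp3 UMIs required, Tcf7 missed the threshold (−2.07, adjusted p = 0.0770, edgeR), as did the other genes of this group, while Tcf7 and Ccr7 passed with mutant 2 added and Klf2, Lef1 and Foxp1 did not (adjusted p = 0.226, 0.148 and 0.139). Foxp1 was not called with DESeq2 (0.286), nor Klf2 with no filter on low counts (0.0753). The share of positive cells with Ccr9 moved in the same direction, at 69.2% in mutant 1 against 45.9% and 44.4% in WT, and in WT, too, Tcf7 was found in fewer of the positive cells with Ccr9 (22 of 51 and 3 of 12) than of those without it (55 of 60 and 14 of 15). The part of that share in the genotype values was not tested.

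Among 11 testable genes of the T cell receptor response list, Fos, Nr4a1, Dusp2 and Cd69 were called lower in mutant 1. Batf was called higher (1.43) and the others did not pass, with a median of −1.05. Fos and Nr4a1 were also called lower in the mutant among the other kept cells, as given below. Fos, an immediate early gene switched on within minutes of stimulation, had 2 UMIs in mutant 1 against 341 in WT, 15.0-fold (counting interval 4.12 to 124) lower (edgeR adjusted p = 1.16e-06). With mutant 2 added, Nr4a1, Cd69 and Batf lost their calls (adjusted p = 0.0653, 0.486 and 0.0533), and at 2 Foxp3 UMIs or more Nr4a1, Dusp2, Cd69 and Batf did (0.269, 0.150, 0.563 and 0.150). DESeq2 did not call Batf (0.423). The heat shock gene Hspa1b stood at 269 and 207 CPM in WT and had no UMI in mutant 1, at least 9.17-fold lower (edgeR adjusted p = 5.09e-09). Fos and Hspa1b also missed the threshold at 2 Foxp3 UMIs or more (0.0770 and 0.0590). The near-identical copy Hspa1a, whose reads are hard to tell from those of Hspa1b, was at least 4.13-fold lower and lost its call at 2 Foxp3 UMIs or more (adjusted p = 0.185). The median mitochondrial share of positive cells was 2.57%, 2.84% and 1.65% in WT 1, WT 2 and mutant 1, and its part in these values was not tested. Myb, which is not in the cycling list, and Stmn1, which is, were at least 4.51 and 4.31-fold lower. Stmn1 was the only gene of the cycling list called here. The ubiquitin ligase Cblb (−2.15) and the receptor Cd160 (1 UMI in mutant 1, 9.32-fold (counting interval 1.64 to 372) lower) fell, and Lag3 rose (0.72). At 2 Foxp3 UMIs or more the calls of Myb, Stmn1, Cblb, Cd160 and Lag3 were lost (adjusted p = 0.107, 0.265, 0.269, 0.317 and 0.317). With mutant 2 added Myb, Cblb and Lag3 (0.0575, 0.113 and 0.699), with no filter on low counts Cd160 (0.0912) and with DESeq2 Lag3 (0.158) were lost as well.

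TGF-β targets did not differ detectably by genotype within positive cells. None of the 9 testable feedback and induced genes passed. Smad7 stood at 86.3 and 102 CPM in WT and 87.3 in mutant 1 (−0.06 ± 0.52, edgeR adjusted p = 0.980), and Pmepa1 at 139.7 and 85.4 against 96.0 (−0.35 ± 0.49, 0.864). Mutant 1 lay between the WT libraries in both. Among the pathway components, Tgfbr2, the partner receptor of Tgfbr1, had 1 UMI in mutant 1, 9.32-fold (counting interval 1.64 to 372) lower (edgeR adjusted p = 0.0350), and the other 6 testable genes did not pass. The Tgfbr2 call was lost with mutant 2 added (adjusted p = 0.118), with a replicate block besides (0.356), at 2 Foxp3 UMIs or more (0.491) and with no filter on low counts (0.0706). Gpr83 had no UMI in mutant 1 and stood at 33.9 and 69.1 CPM in WT, at least 1.47-fold lower, without passing the test (edgeR adjusted p = 0.153). With 13 mutant cells, 4-fold changes were recovered in 59.8% and 2-fold changes in 15.1% of genes in a simulation of this fit, so a gene that did not pass may still differ.

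**Figure D5:**
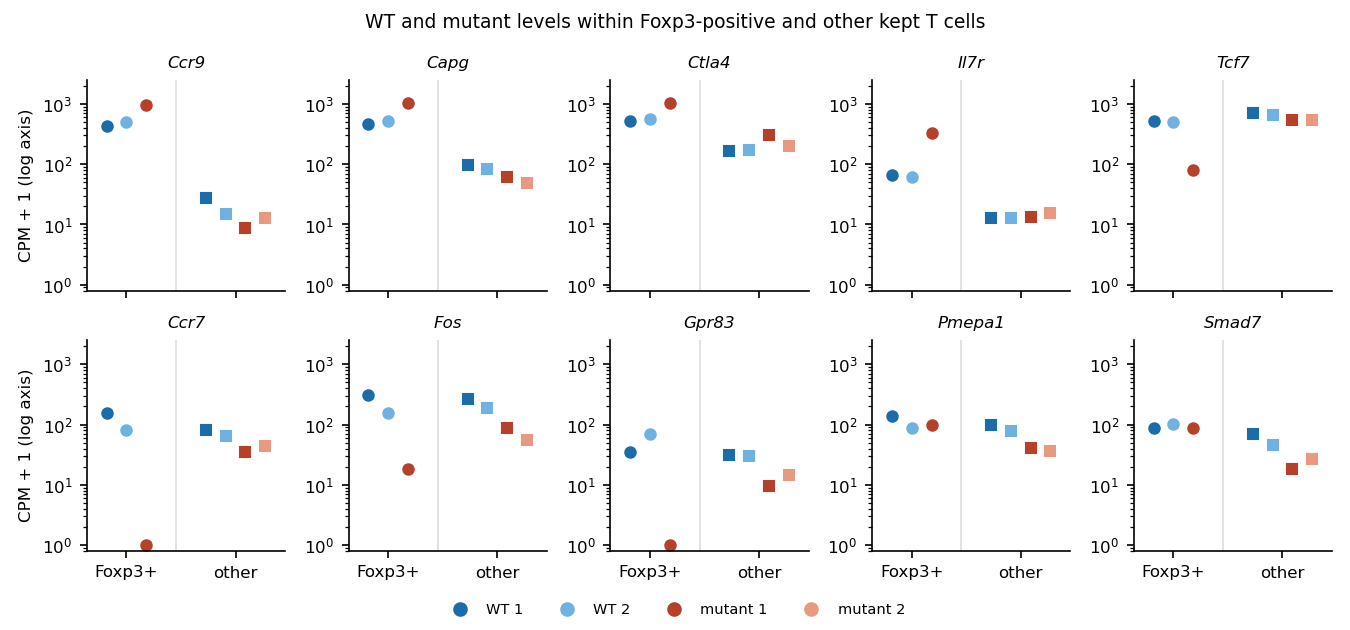
Levels of 10 genes as CPM + 1 on a log axis, in Foxp3-positive cells of WT 1, WT 2 and mutant 1 (circles) and in other kept cells of all 4 libraries (squares), each set normalized on its own. Ccr9, Capg, Ctla4 and Il7r were highest and Tcf7, Ccr7 and Fos lowest in mutant 1 positive cells, while Smad7 and Pmepa1 lay between the WT values there and were lower in both mutant libraries among other cells.

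The same genotype contrast in the other kept cells, with 2 libraries against 2, called 123 rises and 63 falls among 10627 genes (1.75%, 1.16% up and 0.593% down, median −0.00). The rises numbered 27 without WT 1, 72 without mutant 1 and 206 without mutant 2, and the falls 18 without WT 1 and 132 without mutant 2. There, Smad7 stood at 68.8, 44.5, 17.6 and 25.5 CPM in WT 1, WT 2, mutant 1 and mutant 2 (−1.52 ± 0.21, edgeR adjusted p = 0.000443) and Pmepa1 at 96.7, 78.5, 39.8 and 35.3 (−1.20 ± 0.15, 0.000203). Of 11 testable genes of the naive and recirculating list, Ccr7, Klf2 and Lef1 fell and none rose. Of 14 testable genes of the T cell receptor response list, Cd5, Fos and Nr4a1 fell and none rose. Ccr7, Klf2, Lef1, Fos and Nr4a1 were thus called lower in both cell sets. In the other cells, the calls of Ccr7, Klf2, Lef1, Cd5 and Nr4a1 were lost without WT 1. Gpr83 fell from 30.2 and 28.8 CPM in WT to 8.46 and 13.6 (−1.59 ± 0.21, edgeR adjusted p = 0.000288). Ccr9 fell as well (−1.24 ± 0.28, edgeR adjusted p = 0.0282, lost without WT 1 or mutant 1, with DESeq2, with doublets removed and in cells with 0 UMIs of Foxp3, Il2ra and Gpr83) and so did Capg (−0.71 ± 0.15, adjusted p = 0.0145, lost without WT 1, with DESeq2 and in the same cells with 0 UMIs). Of the 174 genes called in positive cells, 172 were also tested in the others, where 19 were called in the same and 2 in the opposite direction.

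The difference between the genotype effects of the 2 cell sets was tested as an interaction. Of 10655 genes, 13 had a higher and 18 a lower effect in positive cells (0.291%, 0.122% and 0.169%), with 761 at an unadjusted p under 0.05 and a median of −0.29. Ccr9 differed by 2.48 ± 0.37 (edgeR adjusted p = 0.000724) and Capg by 1.65 ± 0.25 (0.000724), each higher in mutant 1 among positive cells and lower among the others. Il7r (2.20, 0.0280) was higher, and Tcf7 (−2.43 ± 0.37, 0.000724), Tnfsf8 (−1.71, 0.0190) and Foxp1 (−1.50, 0.0468) were lower in effect among positive cells. These calls were not stable: at 2 Foxp3 UMIs or more Ccr9 (1.42, adjusted p = 0.0614) and Il7r (1.56, adjusted p = 0.406) were lost, and with mutant 2 added Capg (1.36, adjusted p = 0.0597), Tcf7 (−2.54, adjusted p = 0.0624), Tnfsf8 (−0.94, adjusted p = 0.934) and Foxp1 (−1.76, adjusted p = 0.227) were. DESeq2 called neither Tnfsf8 (0.0754) nor Foxp1 (0.200). For Smad7 (1.67, edgeR adjusted p = 0.455), Pmepa1 (0.80, 0.805), Skil (1.03, 0.635) and Ctla4 (0.10, 0.925) the difference between the sets did not pass, so their genotype effect is not shown to differ between positive and other cells.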

How the data were processed

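The 4 deposited matrices hold raw UMI counts per gene and barcode for 32285 mouse genes. Per the submitters' processing notes the tools were Cell Ranger 6.0.0 and Seurat 4, and the genome build was mm10; other settings are not given in the sources used here. Per the labels' protocols, the libraries were 3′ libraries. Python 3.11.15 with scanpy 1.11.5, scipy 1.17.1 and R 4.3.3 were used. Groups came from the labels. The Foxp3-positive cells, the marker and gene lists and the splits were chosen with earlier results of these data known. Counts were summed per library and cell set, using libraries with at least 10 positive cells, and tested with edgeR 4.0.16 (TMM, filterByExpr, quasi-likelihood test, Benjamini-Hochberg adjustment over all genes tested, threshold 0.05), leaving out Foxp3. Standard errors were derived from the F statistic. DESeq2 1.42.0, no filter on low counts, each library left out, Scrublet doublets removed, at least 2 Foxp3 UMIs, all 4 libraries, depth-matched other cells, no library block and a replicate block were alternatives. Doublets were kept in the main results. Named genes were the 12 largest rises and 8 largest falls of Foxp3-positive against other cells with one direction in every library, the 5 largest each way for genotype and interaction, and the genes of the lists that passed or that give context; T cell receptor, immunoglobulin, predicted and mitochondrial genes were left out. A gene that the rule names is counted in the totals but not reported here. Genes with no UMI in one set were given as bounds against 3 counts. On simulated counts with 200 changed genes, the comparison of positive with other cells recovered 49.0% of 2-fold and 81.4% of 4-fold changes over 9979 genes. Total UMIs per kept cell set are in the text; UMIs are counted molecules, and intervals cover counting error only. Coordinates are those of GENCODE on GRCm38. The hashtag samples without a matrix of their own (2) were not analysed here, and the peanut and rapamycin experiments of the design text are not placed on these libraries by the labels.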

Additional observations from a re-analysis of the deposited data

Results flagged for a closer look

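The genotype effect differed between Foxp3-positive and other cells for 14 named genes by the test of the difference itself, and this is what set them apart for a closer look. By edgeR adjusted p, given after the log2 difference where that is shown, the effect was higher in positive cells for Gzmb (4.72 ± 0.67, 0.000622), Ccr9 (0.000724), Capg (0.000724), Lztfl1 (1.98, 0.000857), Il7r (0.0280) and Kit (0.0306). Kit rested on 9 UMIs in 1 cell of mutant 1, and Gzmb on 31 UMIs in 4 cells of mutant 1. Lztfl1 (chromosome 9, 123694416 to 123717697, minus strand) lies within the span of Ccr9 on the opposite strand. Whether its counts are separate from those of Ccr9 was not tested. At 2 Foxp3 UMIs or more, the calls of Ccr9 and Il7r were lost, and so were those of Gzmb (2.92, adjusted p = 0.417, edgeR), Lztfl1 (1.21, adjusted p = 0.299) and Kit (adjusted p = 0.0589). The effect was lower in positive cells for Tcf7 (0.000724), Jun (0.0164), Ccnd3 (−2.69, 0.0190), Tnfsf8 (0.0190), Cblb (−2.61, 0.0306), Dusp2 (0.0336), Foxp1 (0.0468) and Myb (0.0491). In positive cells of mutant 1, Jun and Dusp2 had 2 UMIs each and Myb none. Of these, Cblb, Dusp2 and Myb lost their calls at 2 Foxp3 UMIs or more (adjusted p = 0.0573, 0.167 and 0.145, edgeR). With mutant 2 added Capg, Tcf7, Tnfsf8, Foxp1, Ccnd3 (0.0786), Cblb (0.0651), Dusp2 (0.0788) and Myb (0.390) did. DESeq2 did not call Jun (0.143), Ccnd3 (0.123), Tnfsf8 or Foxp1. All of these comparisons rest on the 13 positive cells of mutant 1 on the mutant side.

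Antibody tags, which no comparison used, were counted in the Foxp3-positive cells of the WT libraries. WT 1 held 1881 tag UMIs in its 111 positive cells and WT 2 held 459 in its 27, against a floor of 3 counts. The mutant matrices carry no tags.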

How the results depend on the processing

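Limits first: 1 mutant library carried the positive-cell genotype values, and 13 cells gave its depth. In Foxp3-positive against other cells, rises and falls numbered 130 and 40 with DESeq2 (168 of its 170 calls shared), 85 and 53 with depth-matched other cells, 114 and 44 with no library block, and 124 to 132 and 55 to 126 with 1 library left out; no filter on low counts (221 and 189), doublets removed (204 and 151), at least 2 Foxp3 UMIs (240 and 173) and all 4 libraries (200 and 132) stayed within 1.5 times. Mki67 ran from −1.81, a reversed sign, without WT 1 to 2.12 without WT 2. Within positive cells, genotype calls were 13 and 7 with DESeq2, 6 and 1 at 2 Foxp3 UMIs or more, 7 and 10 with all 4 libraries, and 6 and 9 with a replicate block and all 4 libraries; leaving out 1 of the 3 libraries left no residual degree of freedom or no mutant library, so that was not run. Within other cells, calls were 34 and 25 with DESeq2, 238 and 149 with no filter, 27 to 206 and 18 to 132 with 1 library left out, and 33 and 25 in cells with 0 UMIs of Foxp3, Il2ra and Gpr83; rises were 81 with doublets removed. A replicate block gave 209 and 124 there, and the numbers do not pair the libraries (r = −0.03 between the replicate differences of WT and mutant over 10627 genes), so the block is given only here. For the interaction, calls were 5 and 2 with DESeq2, 21 and 39 with no filter, and 5 and 2 with all 4 libraries, and rises were 7 at 2 Foxp3 UMIs or more. The share of positive cells moved to 4.85% (WT 1) and 2.77% (WT 2) at 2 Foxp3 UMIs or more and to 5.96% (WT 1) at 4000 UMIs. The cause of these moves was not tested.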

Other observations

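The single Foxp3-positive cell of mutant 2 entered no test. Of its 11760 UMIs it held 2 of Foxp3, 6 of Ccr9, 5 each of Capg, Ctla4 and Tnfrsf4, 6 each of Tnfrsf18 and Itgb7, 8 of Nt5e, 9 of Icos, 56 of Maf and 1 each of Il2ra, Tigit and Tcf7, and none of Il10 or Gpr83.

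In the WT libraries, cells were also grouped by their leading antibody tag, numbered 301, 302 and 303 in the files, whose meaning the labels do not give. The positive share was 10.6% (44 of 415), 8.96% (37 of 413) and 6.23% (19 of 305) under tags 301, 302 and 303 in WT 1, and 10.7% (11 of 103) with no leading tag. In WT 2 it was 3.85% (5 of 130), 7.46% (5 of 67), 3.45% (12 of 348) and 7.25% (5 of 69). A leading tag had at least 5 UMIs and at least 2 times the next. Each tag's cells in both libraries included Foxp3-positive cells.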
